A study of Mus musculus with 29 samples.

Results

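The comparison described here is the difference between 2 genotype changes in mouse oocytes: the change of CKO over WT in metaphase II oocytes (MII 3W), minus the change of CKO over WT in fully grown oocytes (FGO 4W). It used 13 of the 29 libraries of the series and all 49997 gene symbols of the deposited count table, of which 21768 passed the filter on low counts and were tested. CKO females carried Dhx36fl/fl with Zp3-Cre, and WT females carried Dhx36fl/fl without Cre, so both genotypes held the floxed alleles. The 4 groups were CKO MII 3W (4 libraries) and WT MII 3W (3 libraries) from 3-week-old females, and CKO FGO 4W (3 libraries) and WT FGO 4W (3 libraries) from 4-week-old females. Each library was made by Smart-seq2 from the poly(A) RNA of a tube of 10 pooled oocytes. Meiotic stage and age differ together between MII 3W and FGO 4W and cannot be told apart. The interaction was therefore also computed with fully grown oocytes of the younger age (FGO 3W) in place of FGO 4W. Values against FGO 3W are given beside the results they bear on. FGO 3W had 2 libraries per genotype, against 3 at FGO 4W, so a call lost against FGO 3W is not shown to depend on age.

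DHX36 is a helicase of the DEAH family that unwinds G-quadruplexes, folded structures of guanine-rich nucleic acid. The Zp3 promoter drives Cre in growing oocytes, so deletion begins while the oocyte is still accumulating its maternal RNA. The fully grown oocyte has stopped transcription and is arrested in prophase of meiosis. During maturation to metaphase II it works from stored RNA: some messages gain a poly(A) tail and are translated, while others lose their tail and are degraded, with transcripts for ribosomes and mitochondria among those known to be cleared. Selection of poly(A) RNA reads both processes, so a longer tail and more molecules cannot be told apart here. Fewer cells and less RNA per cell cannot be told apart either, and all levels are relative to the other genes of the same library.

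Library totals ran from 27425383 to 41332380 counts in CKO MII 3W, from 31669370 to 37523311 in WT MII 3W, from 19103776 to 23051315 in CKO FGO 4W and from 23323996 to 25292336 in WT FGO 4W. Levels are given as CPM, counts scaled by the library total times its TMM factor, and these factors ran from 0.703 to 1.255 over the 13 libraries. Over genes with at least 20 CPM, replicate pairs correlated at 0.9305 to 0.9885 in CKO MII 3W, 0.9898 to 0.9927 in WT MII 3W, 0.9792 to 0.9821 in CKO FGO 4W and 0.9453 to 0.9822 in WT FGO 4W. Ribosomal RNA took 5.27%, 8.94%, 23.0% and 3.52% of the counts in CKO MII 3W replicates 1 to 4, against 3.82% to 4.44% in WT MII 3W, 2.03% to 2.31% in CKO FGO 4W and 1.70% to 2.05% in WT FGO 4W. CKO MII 3W replicates 2 and 3 stood apart in this share, and counts are also given without both where they differ. The part of ribosomal RNA in the results was not tested beyond this. Oocyte markers were abundant in every library. Their summed level was 13530 to 17160 CPM in CKO FGO 4W and 21490 to 23990 CPM in WT FGO 4W, without overlap. It was 19740 to 27690 CPM in CKO MII 3W and 25970 to 27270 CPM in WT MII 3W.

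Counted over the whole gene (chromosome 3, 62468015 to 62507034, GRCm38.p6), Dhx36 was at 3226, 660.4, 1478 and 338 CPM in CKO MII 3W and 409.6, 397 and 429 CPM in WT MII 3W. It was at 82.9, 86.0 and 86.8 CPM in CKO FGO 4W and 67.05, 73.9 and 64.9 CPM in WT FGO 4W. At FGO 4W every CKO library lay above every WT library. The 4 CKO MII 3W libraries differed widely among themselves, with replicate 4 below the WT MII 3W libraries and the other 3 above them. The labels do not say which exons are floxed, so a count over the whole gene does not check the deletion. The interaction was 1.48 ± 0.61 on the log2 scale (SE; edgeR adjusted p = 0.0931), and an exact two-sided permutation of genotype within stages gave p = 0.356 on mean log2 CPM, where the smallest possible p is 0.00143. Without CKO MII 3W replicate 1 the interaction was 0.67, and without replicate 4 it was 1.79 and called.

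An interaction above 0 means that CKO stood higher relative to WT at MII 3W than at FGO 4W, which is the same as a change from FGO 4W to MII 3W that was higher in CKO than in WT. Called means an edgeR quasi-likelihood p, adjusted by Benjamini-Hochberg over all 21768 genes, under 0.05. The interaction was called in 2521 genes above 0 (11.6% of genes tested) and in 1329 genes below 0 (6.11%), and 2243 and 930 of these differed at least 2-fold. Genes above 0 made up 65.5% of the calls, and 54.8% of the calls of a limma test on the authors' FPKM with a pseudocount of 1. The median interaction of all genes tested was 0.15, and 0.08 over the 7897 genes with at least 20 CPM in a group. Genes in that range were called above 0 in 18.1% of cases and below 0 in 11% of cases. A list whose shares lie near these values, or between them and those of all genes, is not set apart by its counts.

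Over the 7897 genes, the log2 change from FGO 4W to MII 3W in CKO and that in WT, which share no library, had a correlation across genes of 0.828, as a description, since genes are not independent replicates. The SD of the change was 1.85 in CKO and 2.00 in WT. From FGO 4W to MII 3W, 2673 of these genes fell in CKO and 2817 in WT, with 2322 lower in both. The genotype changes at MII 3W and at FGO 4W, which also share no library, correlated at 0.375 across the same genes.

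**Figure D1:**
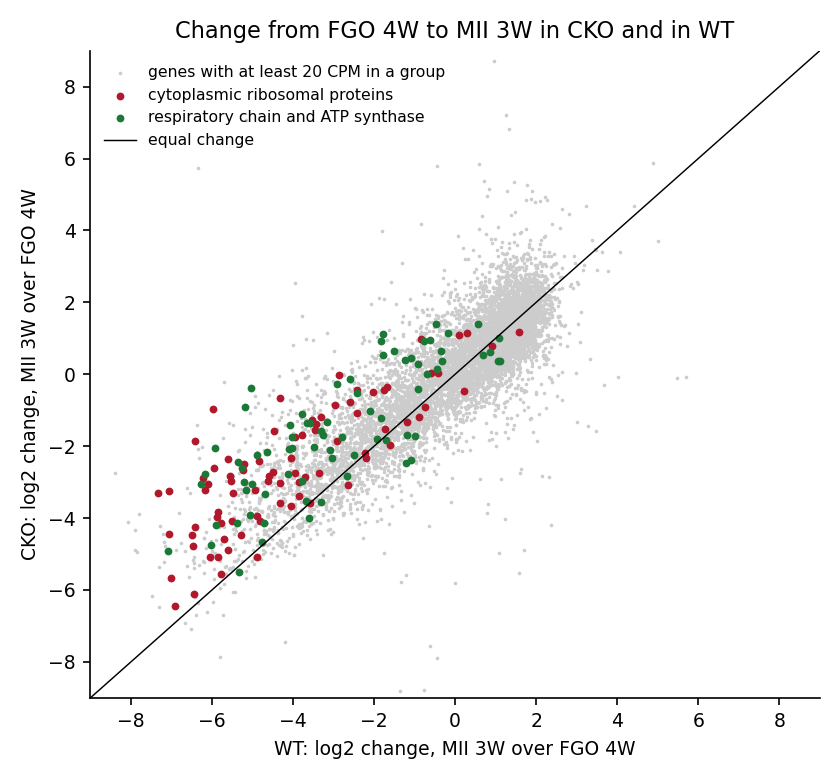
Each grey point is a gene with at least 20 CPM in a group (7897 genes, of which 6 lie outside the axes). The log2 change from FGO 4W to MII 3W in CKO is on the vertical axis and that in WT on the horizontal axis. Red and green points are tested list members without this minimum. Most cytoplasmic ribosomal protein genes (red) and respiratory chain genes (green) lie in the lower left, above the line of equal change.

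Cytoplasmic ribosomal protein genes, which encode the structural proteins of the ribosome, lost less of their level from FGO 4W to MII 3W in CKO than in WT. Of 82 members tested, 54 were called above 0 and 0 below, a share of 65.9% against 11.6% of all genes. The median interaction was 1.48. Against FGO 3W, 54 members were called above 0 and 1 below, with a median of 1.79. Their median level (log2 CPM) was 4.49, 4.06, 4.78 and 4.09 in the 4 CKO MII 3W libraries and 2.55, 2.52 and 2.56 in WT MII 3W, with no overlap. In fully grown oocytes it was 6.74, 6.81 and 6.95 in CKO FGO 4W and 6.65, 6.87 and 6.91 in WT FGO 4W, so the groups overlapped there. The median genotype change was 1.40 at MII 3W and -0.02 at FGO 4W. From FGO 4W to MII 3W, 69 members fell in CKO (30.1% of all genes tested did) and 75 in WT (29.3% of all genes), and the median change was -2.72 in CKO and -4.32 in WT. Members of the large subunit were called above 0 in 34 of 49 cases and those of the small subunit in 20 of 33.

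Rps19, a small subunit protein, had the highest interaction of the list. It was at 25.6, 17.8, 38.9 and 26.4 CPM in CKO MII 3W and at 1.29, 1.94 and 0.991 CPM in WT MII 3W. It was at 51.2, 52.5 and 56.4 CPM in CKO FGO 4W and at 84.2, 83.7 and 94.96 CPM in WT FGO 4W. CKO was the higher genotype at MII 3W and the lower one at FGO 4W, without overlap at either stage. The interaction was 4.99 ± 0.50 (SE; edgeR adjusted p = 7.11e-08), and the genotype change alone was called at MII 3W (4.27) but not at FGO 4W (-0.72, adjusted p = 0.109).

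Rpl5, a large subunit protein that carries the 5S RNA, had an interaction of 2.41 ± 0.26, with 66.0 to 103 CPM in CKO MII 3W against 24.5 to 26.5 CPM in WT MII 3W. Among the 28 members that were not called, interactions ran from -0.69 in Rps2 to 1.69 in Rpl9. Many ribosomal protein genes have processed pseudogenes of near-identical sequence, so their counts are uncertain where reads could match both. Without the rRNA-rich CKO MII 3W replicates 2 and 3 together, 45 members were called above 0 and 1 below, with a median of 1.11.

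Ribosomal protein messages are known for a run of pyrimidines at their 5′ end, which starts with a C at the cap. A C followed by at least 6 pyrimidines (C or T) on the sense strand, within 20 bases on either side of the annotated start, was found in 35 of the 61 members with a RefSeq start window (57.4%), against 22.8% of 15250 tested genes with a window. A comparison of members called and not called, or of called genes with all genes, is void, since 61 of the 82 members and 15250 of the 21768 genes had a window. The 30 bases around the run are shown for 4 members called above 0 and 3 not called, since both kinds can have it. Relative to the annotated start, it begins at 7 in Rps19, 1 in Rpl38, 2 in Rpl18 and -2 in Rps27. Among members not called, it begins at -1 in Rps6, -4 in Rpl15 and -17 in Rpl4. A run before the annotated start need not lie in the message, and its place relative to the cap was not tested. Capitals mark the run, sequences are from RefSeq on GRCm38.p6, 5′ to 3′ on the strand of the gene.
Rps19 (called above 0, chr7:24884913-24884942, + strand): ggagggCTCTCCCacgcggtcaccacgccg
Rpl38 (called above 0, chr11:114668574-114668603, + strand): ctcgttCTTTCCCCgttctcttcggttctc
Rpl18 (called above 0, chr7:45718066-45718095, + strand): aggccgCTCTTTCCCCgcccactccggcgc
Rps27 (called above 0, chr3:90213627-90213656, - strand): ctttcgCTCCTTTCCggcggtgacgacctc
Rps6 (not called, chr4:86857345-86857374, - strand): gtcgggCCTCTTTTTCgtgacgcctcccag
Rpl15 (not called, chr14:18270967-18270996, - strand): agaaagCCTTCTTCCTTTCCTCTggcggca
Rpl4 (not called, chr9:64173364-64173393, + strand): acaagtCTTTCCTTTTCCTgtgggagcagc

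Nuclear genes of the respiratory chain and ATP synthase, which make the inner mitochondrial membrane complexes that produce ATP, showed a similar course. Of 75 members, 50 were called above 0 (66.7%) and 5 below (6.67%), with a median interaction of 1.38. Their median level (log2 CPM) was 4.77, 4.60, 5.10 and 4.73 in CKO MII 3W and 3.20, 3.11 and 3.12 in WT MII 3W. It was 6.12, 6.12 and 6.23 in CKO FGO 4W and 6.38, 6.49 and 6.63 in WT FGO 4W. By this median, CKO libraries lay above all WT libraries at MII 3W and below all of them at FGO 4W. Gene by gene, the median genotype change was 1.31 at MII 3W and -0.09 at FGO 4W, where 4 members were called higher in CKO and 13 lower. The median change from FGO 4W to MII 3W was -1.72 in CKO and -3.09 in WT. By complex, 27 of 37 members of complex I, 1 of 4 of complex II, 4 of 9 of complex III, 6 of 10 of complex IV and 12 of 14 of ATP synthase were called above 0.

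Ndufa2, an accessory subunit of complex I, was at 27.2, 24.5, 42.7 and 29.6 CPM in CKO MII 3W and at 3.30, 2.65 and 2.67 CPM in WT MII 3W. It was at 123, 126 and 139 CPM in CKO FGO 4W and at 163, 185 and 174 CPM in WT FGO 4W. The MII 3W groups lay about an order of magnitude apart, and the interaction was 3.86 ± 0.31 (SE; edgeR adjusted p = 1.76e-09). Ndufs7, which holds an iron-sulphur cluster of the same complex, had an interaction of 3.22 ± 0.34, with 8.22 to 12.7 CPM in CKO MII 3W and 0.915 to 1.15 CPM in WT MII 3W. Cox6b1, a subunit of complex IV, rose by 1.13 in CKO and fell by 1.78 in WT.

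The 5 members called below 0, named after their values were seen, were Atp5a1, Ndufs1, Sdha, Cox5a and Ndufa10. Atp5a1 encodes the alpha subunit of ATP synthase, and Ndufs1 an iron-sulphur subunit of complex I. Atp5a1 was at 60.2, 54.4, 53.4 and 72.5 CPM in CKO MII 3W and at 200.5, 179 and 208 CPM in WT MII 3W. It was at 285, 329 and 319.7 CPM in CKO FGO 4W and at 418, 446 and 395 CPM in WT FGO 4W. CKO was lower at both stages, and by more at MII 3W (-1.71 against -0.43), an interaction of -1.27 ± 0.17 (SE; edgeR adjusted p = 5.79e-06).

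**Figure D2:**
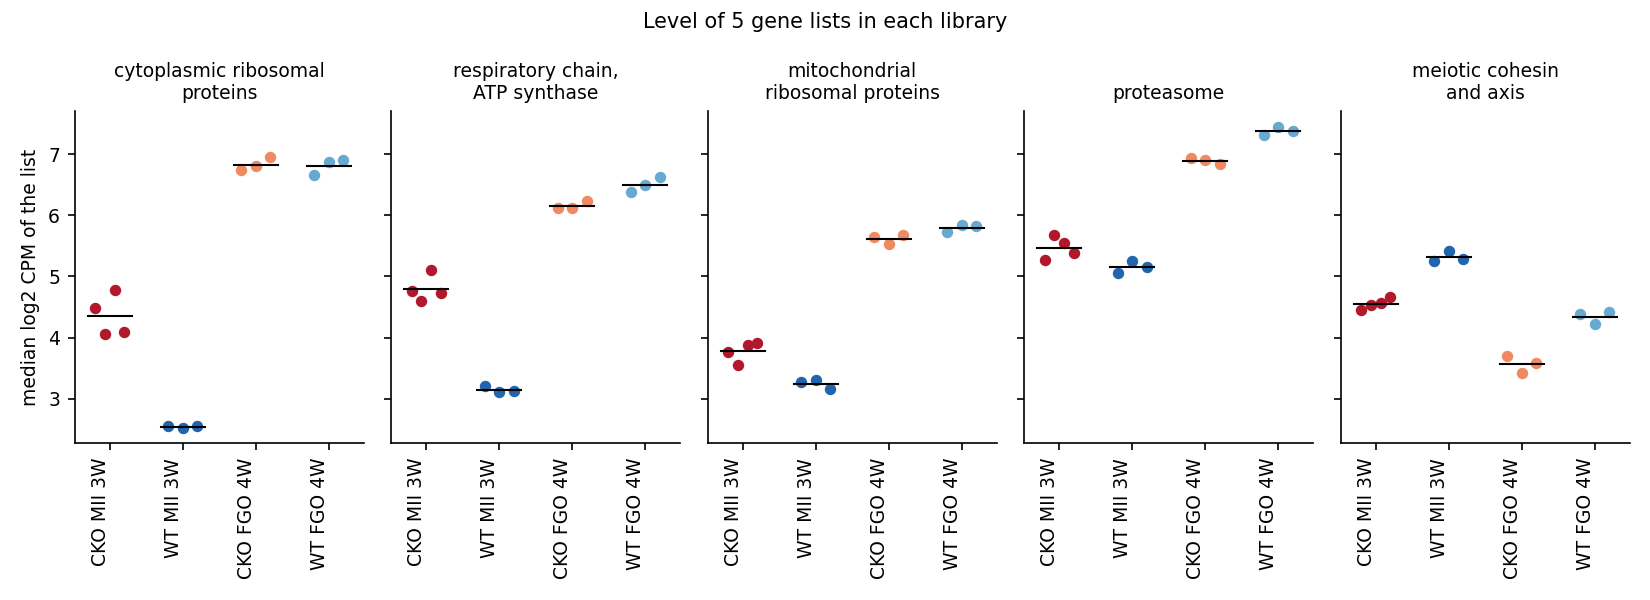
Points are libraries, bars are group means, and the vertical axis is the median log2 CPM over the members of 5 lists. For cytoplasmic ribosomal proteins and the respiratory chain, CKO MII 3W lies above WT MII 3W by more than the spread between libraries, while for meiotic cohesin and axis genes CKO lies below WT at both stages.

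Mitochondrial ribosomal proteins and the proteasome showed the same direction in fewer members. Of 77 mitochondrial ribosomal proteins, 19 were called above 0 (24.7%) and 2 below, with a median of 0.36. Mrps31, of the small mitochondrial subunit, was at 34.2, 45.1, 49.7 and 31.8 CPM in CKO MII 3W against 9.55, 11.8 and 8.88 CPM in WT MII 3W, and at 60.5, 49.5 and 55.8 CPM in CKO FGO 4W against 81.7, 92.6 and 110.2 CPM in WT FGO 4W. CKO was higher than WT at MII 3W and lower at FGO 4W without overlap (interaction 2.77 ± 0.28, edgeR adjusted p = 7.11e-08). Mrpl28 and Mrpl30, of the large subunit, had interactions of 2.53 ± 0.38 and 1.75 ± 0.27. Without both rRNA-rich libraries, 13 members of this list were called above 0 and 5 below.

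Of 38 proteasome genes, 13 were called above 0 (34.2%) and 2 below. The core particle, which cuts proteins, had 8 of 14 members above 0 and the ATPases of the base, which unfold them, 3 of 6. Psmc5, one of these ATPases, had an interaction of 1.57 ± 0.20 (edgeR adjusted p = 2.38e-06), with 24.0 to 29.8 CPM in CKO MII 3W, 12.8 to 18.04 CPM in WT MII 3W, 124 to 143 CPM in CKO FGO 4W and 227 to 245 CPM in WT FGO 4W. The core subunits Psmb1 and Psma5 had interactions of 1.19 ± 0.18 and 1.56 ± 0.25.

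Translation factors were called above 0 in 13 of 44 cases (29.5%) and below 0 in 5 (11.4%). The counts were 14 and 2 against FGO 3W, 11 and 8 with RLE size factors and 13 and 9 with DESeq2. Eif1ax, which scans for the start codon, fell by 2.76 in CKO and by 4.28 in WT (interaction 1.52 ± 0.21). Eif3g, of the eIF3 complex, fell by 4.40 in CKO and by 6.15 in WT (interaction 1.75 ± 0.30). Eif2s1 went the other way. It encodes the alpha subunit of eIF2, whose phosphorylation is the switch of the integrated stress response. It was at 15.6, 12.1, 12.8 and 13.3 CPM in CKO MII 3W and at 84.9, 83.8 and 75.3 CPM in WT MII 3W, against 117, 117 and 109.9 CPM in CKO FGO 4W and 145, 145 and 151 CPM in WT FGO 4W. The MII 3W groups did not overlap, and the interaction was -2.24 ± 0.26 (SE; edgeR adjusted p = 8.57e-07). Without both rRNA-rich libraries, 5 translation factors were called above 0 and 7 below, and Eif2s1 remained called. That fit also has fewer CKO MII 3W libraries, and the part of ribosomal RNA in the shift was not tested.

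Unfolded protein and integrated stress response genes were the list with the highest share below 0, at 7 of 37 (18.9%, against 6.11% of all genes), with 3 above 0. Against FGO 3W the counts were 8 above 0 and 4 below. Eif2s1, counted among the translation factors as well, is among the 7 members below 0 (-2.24). Calr and Hsp90b1, which follow, are among the 3 above 0. Calr, a calcium-binding chaperone of the endoplasmic reticulum, was at 81.5 to 115 CPM in CKO MII 3W and at 63.5 to 80.4 CPM in WT MII 3W, and at 129 to 206 CPM in CKO FGO 4W against 382 to 481 CPM in WT FGO 4W (interaction 1.82 ± 0.23). Hsp90b1, another such chaperone, was higher in CKO at both stages, at 679, 702, 862 and 688 CPM in CKO MII 3W against 179, 215 and 213 CPM in WT MII 3W, and at 313, 312 and 311 CPM in CKO FGO 4W against 210.3, 226 and 185 CPM in WT FGO 4W. Its genotype change was larger at MII 3W by 1.27 ± 0.18 (SE; edgeR adjusted p = 1.28e-05).

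Genes of the egg coat and egg surface were called above 0 in 8 of 19 cases (42.1%) and below 0 in 1, with a median of 0.95. Cd9, the tetraspanin of the egg membrane needed for sperm fusion, was at 165, 85.0, 168 and 219 CPM in CKO MII 3W and at 10.5, 12.6 and 9.53 CPM in WT MII 3W. It was at 144, 192 and 179 CPM in CKO FGO 4W and at 150.1, 138 and 138 CPM in WT FGO 4W. Cd9 fell by 3.71 in WT from FGO 4W to MII 3W, while the change in CKO was -0.11 and was not called. The interaction was 3.60 ± 0.38 (SE, edgeR adjusted p = 1.90e-07). Zp2, a zona pellucida protein, was at 1080.5, 381, 781 and 1586 CPM in CKO MII 3W and at 275, 288 and 273 CPM in WT MII 3W, and at 1052, 1640.1 and 1170.4 CPM in CKO FGO 4W and 3005, 2976 and 2335 CPM in WT FGO 4W. The genotypes changed places between the stages without overlap, with an interaction of 2.89 ± 0.43. For Izumo1r, the egg receptor for the sperm protein IZUMO1, the genotype change was called at FGO 4W alone. It was at 64.6 to 93.6 CPM in CKO MII 3W and 60.6 to 67.3 CPM in WT MII 3W, against 96.4 to 124 CPM in CKO FGO 4W and 543 to 615 CPM in WT FGO 4W (interaction 2.67 ± 0.35). Against FGO 3W, 5 members of the list were called above 0, and Zp3, another zona protein, was no longer called (2.33 against FGO 4W, 1.26 with edgeR adjusted p = 0.0583 against FGO 3W).

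Of 28 egg activation and calcium genes, 8 were called above 0 (28.6%) and 1 below. Against FGO 3W the counts were 5 above 0 (17.9%, against 9.79% of all genes there) and 1 below. Calm2, one of the calmodulin genes, was at 272, 241, 322 and 303 CPM in CKO MII 3W and at 20.3, 26.8 and 26.0 CPM in WT MII 3W. It was at 509, 456 and 446 CPM in CKO FGO 4W and at 373, 419 and 448 CPM in WT FGO 4W. The genotypes overlapped at FGO 4W and lay far apart at MII 3W, with an interaction of 3.36 ± 0.28 (SE; edgeR adjusted p = 3.48e-09). Atp2b1, a plasma membrane calcium pump, rose by 2.57 in CKO and by 1.29 in WT (interaction 1.28 ± 0.25), and its value without the rRNA-rich libraries was 0.84. Stim2, a calcium sensor of the endoplasmic reticulum, had a genotype change called at FGO 4W alone (interaction 1.64 ± 0.27), and the interaction was not called against FGO 3W (0.84, edgeR adjusted p = 0.0545).

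Anaphase control and metaphase arrest genes were called above 0 in 10 of 42 cases (23.8%) and below 0 in 2. The counts were 8 and 6 with RLE size factors, 10 and 7 with DESeq2 and 9 and 7 with the replicate block. Mapk3, which encodes the kinase ERK1 of the MOS pathway, was at 375, 330.2, 463 and 514 CPM in CKO MII 3W and at 106, 106 and 90.8 CPM in WT MII 3W. It was at 213, 238 and 233 CPM in CKO FGO 4W and at 499, 536 and 460.2 CPM in WT FGO 4W. It rose by 0.88 in CKO and fell by 2.30 in WT, an interaction of 3.19 ± 0.35 (SE; edgeR adjusted p = 2.91e-07). Ube2c, the ubiquitin-conjugating enzyme of the anaphase-promoting complex, fell by 1.92 in WT, and its change in CKO of -0.13 was not called (interaction 1.80 ± 0.23). Ensa, an inhibitor of the phosphatase PP2A-B55, was at 27.7 to 44.0 CPM in CKO MII 3W and at 12.4 to 14.6 CPM in WT MII 3W, against 49.3 to 54.6 CPM in CKO FGO 4W and 43.9 to 50.2 CPM in WT FGO 4W (interaction 1.26 ± 0.24).

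Of all genes tested 11.6% were called above 0 and 6.11% below, and of those with at least 20 CPM 18.1% and 11%. Spindle and kinetochore genes were near the latter above 0, in 9 of 44 cases (20.5%), and were called below 0 in 2. The counts were 5 and 1 against FGO 3W, 6 and 5 with RLE size factors and 8 and 5 with DESeq2. Spc24, of the NDC80 complex that binds microtubules, was at 40.9 to 52.0 CPM in CKO MII 3W and at 11.2 to 15.3 CPM in WT MII 3W, against 64.1 to 76.6 CPM in CKO FGO 4W and 95.6 to 114 CPM in WT FGO 4W (interaction 2.30 ± 0.28). Birc5, or survivin, of the chromosomal passenger complex, had an interaction of 1.26 ± 0.21 and the microtubule depolymerase Kif2c one of 1.52 ± 0.31. Tubulin and tubulin folding genes had 10 of 28 members above 0 (35.7%) and 4 below (14.3%), with Tbcb, a tubulin folding cofactor, at 2.39 ± 0.32 and Stmn1, a tubulin-binding protein, at 2.51 ± 0.28 (1.001 against FGO 3W). Tuba3b was lower in CKO at both stages, at 1.30 to 3.92 CPM in CKO MII 3W against 21.5 to 25.4 CPM in WT MII 3W and at 0.423 to 1.003 CPM in CKO FGO 4W against 92.9 to 105 CPM in WT FGO 4W. Tubulin alpha genes are near copies of each other, so its counts are uncertain.

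Genes of prophase arrest and meiotic resumption were split, with 4 of 23 above 0 (17.4%) and 4 below (17.4%), against 3 and 1 with FGO 3W. All genes tested had 11.6% above 0 and 6.11% below, and those with at least 20 CPM had 18.1% and 11%. Cdc25b, the phosphatase that activates CDK1 at resumption, had an interaction of 1.55 ± 0.33. Gpr12, a receptor that keeps rat oocytes arrested, had one of 3.71 ± 0.91 at levels of at most 2.05 CPM. Ywhae, a 14-3-3 protein, had one of -0.74 ± 0.19 that was not called against FGO 3W. Meiotic cohesin, axis and recombination genes had 0 of 31 members called, 2 and 1 against FGO 3W. Their median level (log2 CPM) was 4.44 to 4.66 in CKO MII 3W against 5.25 to 5.41 in WT MII 3W, and 3.43 to 3.70 in CKO FGO 4W against 4.22 to 4.42 in WT FGO 4W. The median genotype change over the members was smaller, -0.20 at MII 3W and -0.36 at FGO 4W, with 9 members called lower in CKO at MII 3W and 10 at FGO 4W.

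Of 46 deadenylation and decay genes, 7 were called above 0 (15.2%) and 7 below (15.2%), and of 42 storage and cytoplasmic polyadenylation genes 6 above (14.3%) and 3 below (7.14%). Both shares above 0 lay between the 11.6% of all genes tested and the 18.1% of genes with at least 20 CPM. Below 0, these 2 background shares were 6.11% and 11%. Against FGO 3W the decay genes had 8 above 0 and 2 below, and their median was 0.32 in place of -0.02. Without both rRNA-rich libraries the storage genes had 3 above 0 and 5 below. Lsm3 and Lsm6, of the ring that binds shortened tails before decapping, had interactions of 2.12 ± 0.22 and 1.90 ± 0.26. Lsm3 was at 128, 165, 176 and 123 CPM in CKO MII 3W against 40.1, 36.6 and 35.3 CPM in WT MII 3W, and at 223, 182 and 205 CPM in CKO FGO 4W against 188, 233 and 246 CPM in WT FGO 4W. Ythdc2, a meiotic helicase that binds methylated RNA, had an interaction of 1.55 ± 0.28, which was 0.52 and not called against FGO 3W.

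Pabpc1l, the poly(A) binding protein of oocytes, was at 67.2, 64.2, 66.2 and 85.1 CPM in CKO MII 3W and at 30.3, 40.9 and 30.1 CPM in WT MII 3W. It was at 113, 153 and 159.8 CPM in CKO FGO 4W and at 366, 347 and 303 CPM in WT FGO 4W. CKO was above WT at MII 3W and below it at FGO 4W, with an interaction of 2.32 ± 0.29 (SE; edgeR adjusted p = 2.11e-06). Ddx6, a helicase of repressed RNA granules, was called below 0. It was at 14.5, 16.6, 20.8 and 9.95 CPM in CKO MII 3W against 7.92, 6.31 and 9.49 CPM in WT MII 3W, and at 47.4, 43.4 and 52.9 CPM in CKO FGO 4W against 3.31, 5.26 and 3.12 CPM in WT FGO 4W. CKO was higher at both stages and by less at MII 3W (interaction -2.65 ± 0.41), and against FGO 3W the value was -1.34. Pabpn1l, another poly(A) binding protein, had an interaction of 1.85 ± 0.35, with 256 to 816 CPM in CKO MII 3W and 160.0 to 182 CPM in WT MII 3W.

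Subcortical maternal complex and Nlrp genes, whose proteins form a structure under the egg membrane needed by the embryo, had 5 of 20 members above 0 (25.0%) and 2 below (10.0%). For all genes tested the shares were 11.6% and 6.11%, and for genes with at least 20 CPM 18.1% and 11%. Ooep was at 308, 232, 318 and 254 CPM in CKO MII 3W and at 133, 139 and 144 CPM in WT MII 3W, against 1179.9, 1253 and 1491 CPM in CKO FGO 4W and 1934, 2153 and 2341 CPM in WT FGO 4W (interaction 1.72 ± 0.20, edgeR adjusted p = 7.79e-07). Tle6, of the same complex, had an interaction of 2.24 ± 0.37. Zbed3 was called below 0, at 13515, 17986, 10154 and 13745 CPM in CKO MII 3W and 30956, 30320.0 and 36764 CPM in WT MII 3W. It was at 9323, 7187 and 8651 CPM in CKO FGO 4W and at 6764, 6157 and 7966 CPM in WT FGO 4W. Zbed3 rose by 0.72 in CKO and by 2.23 in WT, an interaction of -1.51 ± 0.22, which was -0.86 against FGO 3W.

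**Figure D3:**
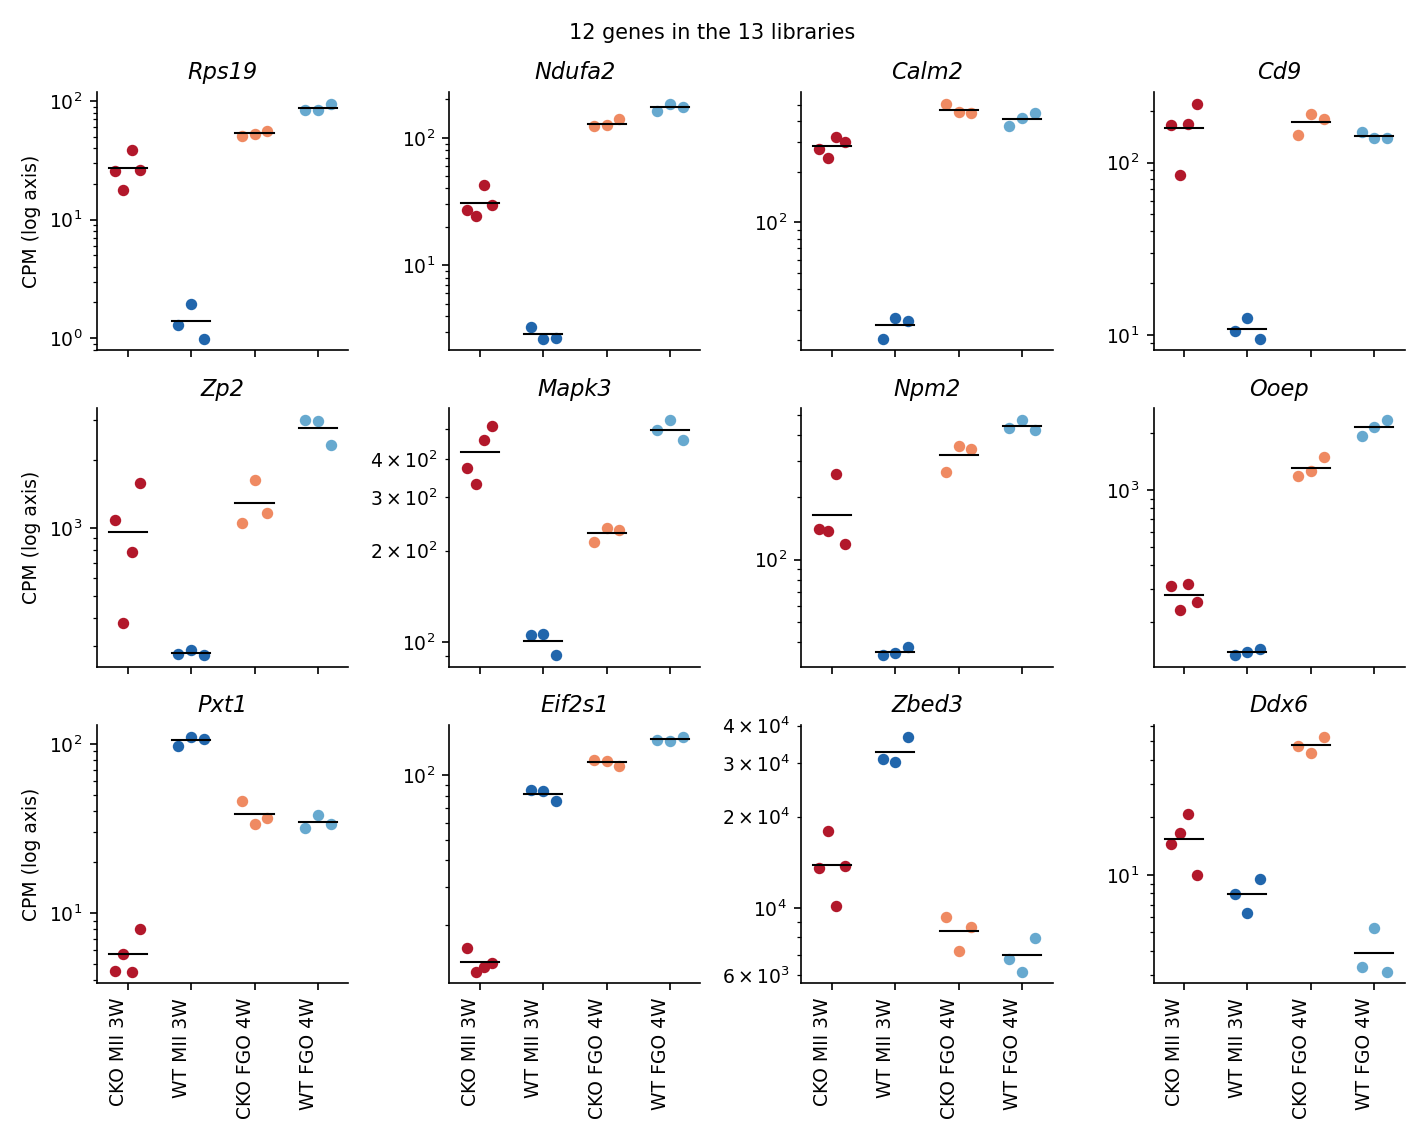
Points are the CPM of 12 genes in each of the 13 libraries on log axes, and bars are group means. In the upper 2 rows CKO MII 3W lies above WT MII 3W, and in Pxt1, Eif2s1 and Zbed3 it lies below, while Ddx6 is higher in CKO at both stages.

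Of 35 maternal chromatin and DNA methylation genes, 6 were called above 0 (17.1%) and 1 below, with 13 and 0 against FGO 3W. The share of 17.1% was near the 18.1% of genes with at least 20 CPM. Npm2, the chaperone that remodels sperm chromatin, was at 139.9, 138, 259 and 119 CPM in CKO MII 3W and at 34.6, 35.2 and 38.0 CPM in WT MII 3W, against 264, 354 and 342 CPM in CKO FGO 4W and 435, 472 and 425 CPM in WT FGO 4W. Its interaction was 2.66 ± 0.34 (SE; edgeR adjusted p = 3.16e-06). Dnmt1, the maintenance DNA methyltransferase, rose by 0.62 in CKO and fell by 1.15 in WT (interaction 1.77 ± 0.29). Chd4, a chromatin remodeller, had an interaction of 1.98 ± 0.47, which was 1.27 and not called without both rRNA-rich libraries, whose 249 and 194 CPM were the higher values of CKO MII 3W.

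Zygotic genome activation genes had 4 of 36 members above 0 (11.1%) and 3 below (8.33%), near the shares of all genes. Their median interaction was -0.61, against 0.15 for all genes. Of 26 members tested by limma, 2 were called above 0 and 8 below on log2(FPKM + 1), and 2 and 4 on log2(FPKM + 0.1). Against FGO 3W, 5 were above 0 and 2 below, with a median of 0.09. Tcstv1, a 2-cell gene, was higher in CKO at both stages and by more at MII 3W (2.24 against 1.14), at 229.9, 270.0, 244 and 248 CPM in CKO MII 3W against 47.3, 60.0 and 50.3 CPM in WT MII 3W. Hsf1, the heat shock factor, had an interaction of -1.11 ± 0.21, not called against FGO 3W, and Usp17lb, of a family of near copies, one of -5.86 ± 1.23, likewise not called there. Oocyte transcription factors and secreted factors had 2 of 21 above 0 (9.52%) and 1 below (4.76%). Fgf8, a growth factor sent to cumulus cells, was at 10.4 to 23.4 CPM in CKO MII 3W, 5.96 to 6.74 CPM in WT MII 3W, 55.1 to 64.0 CPM in CKO FGO 4W and 161 to 195 CPM in WT FGO 4W (interaction 2.90 ± 0.42). Esr1, an oestrogen receptor, and Sohlh2, an oocyte transcription factor, had interactions of 1.21 ± 0.22 and -2.16 ± 0.58, and neither was called against FGO 3W.

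RNA polymerase and splicing genes had 10 of 64 above 0 (15.6%) and 5 below (7.81%), against 15 and 2 with FGO 3W. Both shares lay between those of all genes tested (11.6% and 6.11%) and those of genes with at least 20 CPM (18.1% and 11%). Snrpd2, an Sm core protein, was at 29.6, 17.5, 50.5 and 32.8 CPM in CKO MII 3W and at 2.69, 3.09 and 2.17 CPM in WT MII 3W, with an interaction of 3.66 ± 0.50. Polr2g and Polr3c, of RNA polymerases II and III, had interactions of 1.15 ± 0.19 and 1.69 ± 0.30. G-quadruplex helicases and binders, the class to which DHX36 belongs, had 1 of 26 above 0 (3.85%) and 2 below (7.69%), against 4 and 4 with FGO 3W and 1 and 5 with DESeq2. These were Slirp, which binds mitochondrial RNA (2.46 ± 0.53), Hnrnph2, a splicing factor (-0.79 ± 0.24), and Cnbp, a zinc finger protein that binds single-stranded nucleic acid (-0.78 ± 0.24). Hnrnph2 and Cnbp lost their call in some alternatives, among them the fit without WT FGO 4W replicate 3 (-0.72 and -0.76).

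**Figure D4:**
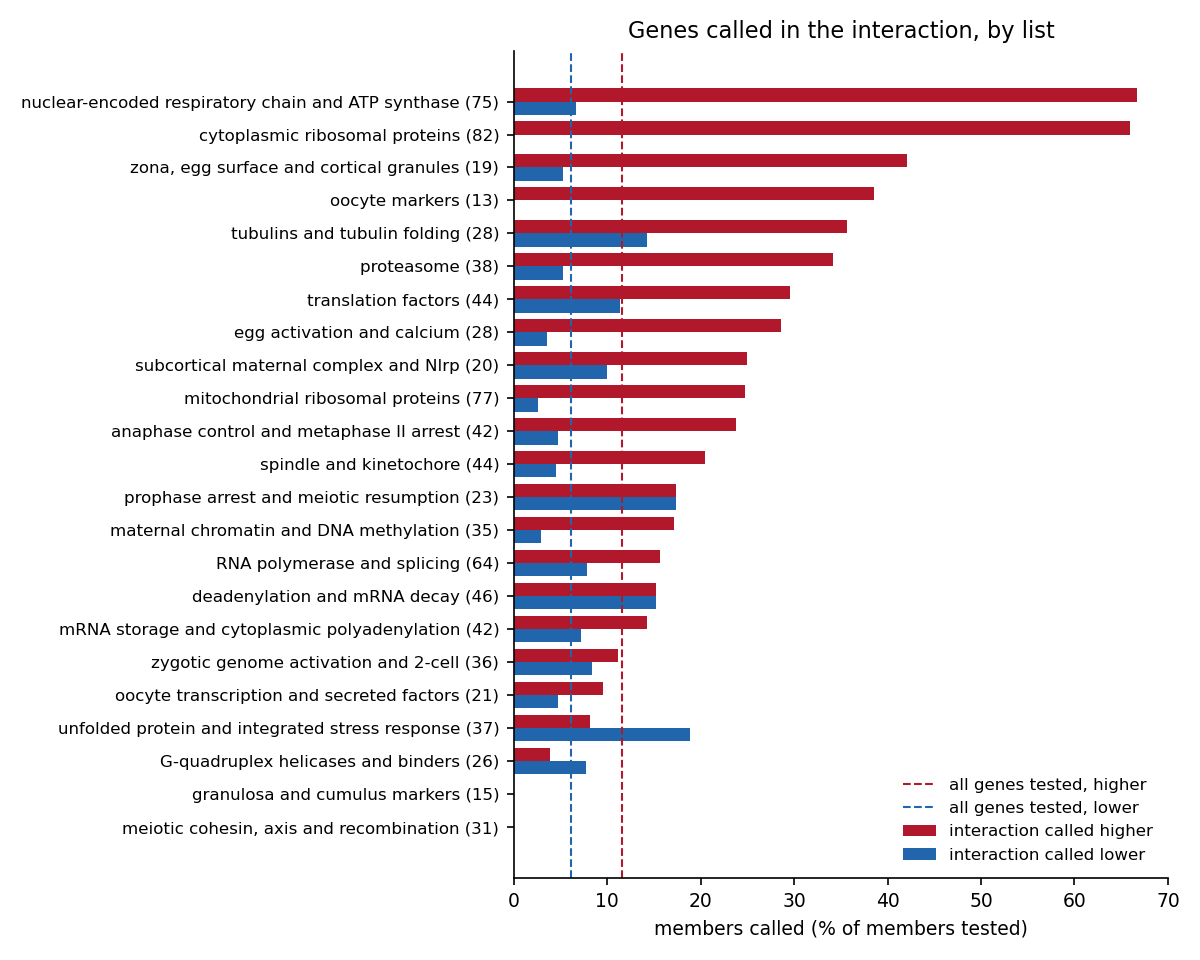
Bars give the share of tested members called above 0 (red) and below 0 (blue) in the interaction by list, with the number tested in brackets. Blood and immune markers and stroma and theca markers are left out. Dashed lines mark 11.6% above 0 and 6.11% below 0 among all genes tested, and the respiratory chain and cytoplasmic ribosomal proteins reach 66.7% and 65.9%. Among genes with at least 20 CPM the shares were 18.1% and 11%, which are not drawn.

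Called genes were sorted by where the genotype change itself was called. Of those above 0, 1165 (46.2%) had a genotype change called at MII 3W alone, 772 (30.6%) at FGO 4W alone, 313 (12.4%) at both with opposite signs, 73 at both with the same sign and a larger size at MII 3W, 83 with a smaller size, and 115 at neither stage. Of those below 0, the numbers were 634 (47.7%), 392 (29.5%), 92 (6.92%), 63, 41 and 107. The interaction is built from the same libraries as these changes, so the sorting is a description. Over all genes tested, the genotype change was called higher in CKO in 18.2% and lower in 14.7% at MII 3W, and higher in 11.8% and lower in 14.8% at FGO 4W.

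**Figure D5:**
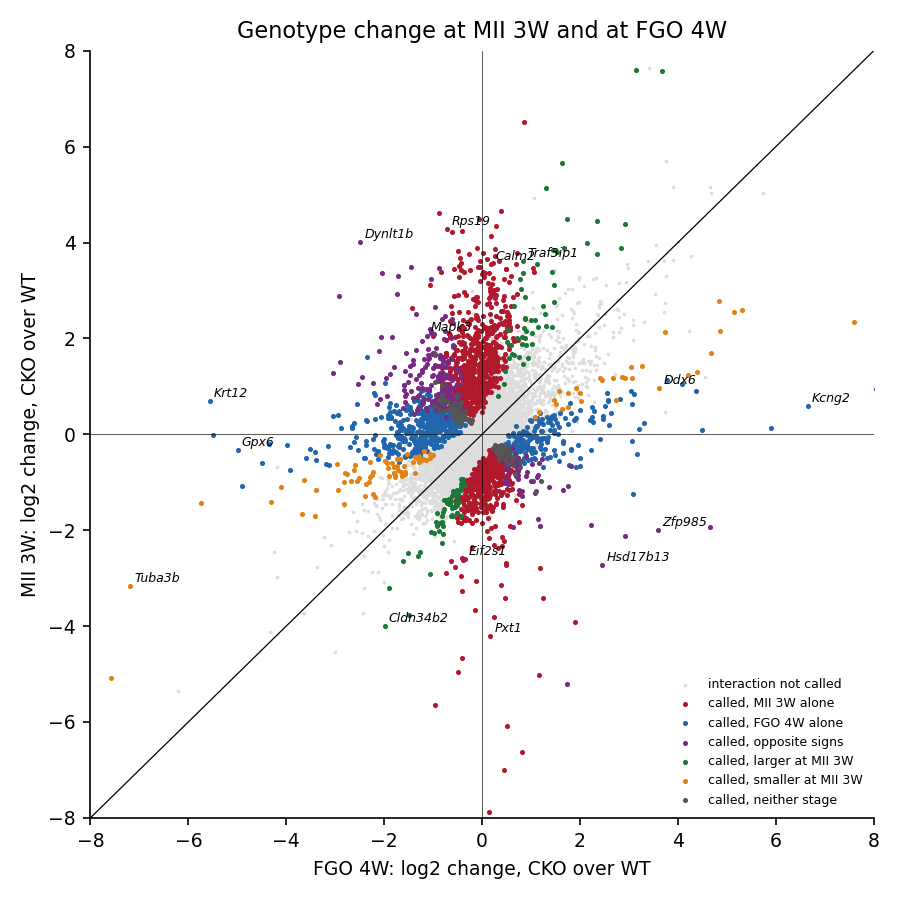
Points are the 7897 genes with at least 20 CPM in a group (14 lie outside the axes), with the log2 change of CKO over WT at MII 3W on the vertical axis and at FGO 4W on the horizontal axis. Genes with a called interaction are coloured by where the genotype change was called, and the diagonal marks an equal change at both stages.

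Among genes with a genotype change called at MII 3W alone, Pxt1, a peroxisomal gene named for its expression in testis, was called below 0. It was at 4.54, 5.73, 4.49 and 8.03 CPM in CKO MII 3W and at 97.4, 110.2 and 107 CPM in WT MII 3W, while CKO FGO 4W held 46.0, 33.5 and 36.4 CPM and WT FGO 4W 31.7, 37.9 and 33.5 CPM. The genotypes overlapped at FGO 4W and lay over an order of magnitude apart at MII 3W, and Pxt1 fell by 2.76 in CKO and rose by 1.61 in WT (interaction -4.37 ± 0.30, edgeR adjusted p = 1.45e-10). Cldn34b2, a claudin family member, was lower in CKO at both stages and by more at MII 3W, at 3.86 to 6.26 CPM in CKO MII 3W against 81.3 to 86.8 CPM in WT MII 3W and at 8.03 to 9.85 CPM in CKO FGO 4W against 22.3 to 43.5 CPM in WT FGO 4W (interaction -2.01 ± 0.36).

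Genes with a genotype change called at FGO 4W alone included some that were close to absent from 1 genotype there. A change that was not called at MII 3W is not shown to be absent. Gpx6, a glutathione peroxidase, was at 36.2, 31.5, 37.1 and 26.2 CPM in CKO MII 3W and 38.8, 45.7 and 38.4 CPM in WT MII 3W, and at 0.923, 0.830 and 0.595 CPM in CKO FGO 4W and 29.1, 20.6 and 25.7 CPM in WT FGO 4W (interaction 4.67 ± 0.37, 1.99 against FGO 3W). Krt12, a keratin, was likewise low in CKO FGO 4W, at 0.277 to 1.54 CPM against 36.8 to 47.2 CPM in WT FGO 4W. Its interaction was 6.26 ± 0.53, and 2.68 against FGO 3W. At MII 3W it was at 43.0 to 59.4 CPM in CKO and 27.7 to 34.4 CPM in WT. The MII 3W groups did not overlap for either gene, with CKO lower for Gpx6 and higher for Krt12. Kcng2, a potassium channel subunit, was at 1.42 to 2.25 CPM in CKO MII 3W, 0.872 to 1.55 CPM in WT MII 3W, 49.5 to 68.0 CPM in CKO FGO 4W and 0.153 to 1.10 CPM in WT FGO 4W (interaction -6.07 ± 0.71). Btla, an immune receptor, was at 0.367 to 1.07 CPM in WT FGO 4W and at 25.8 to 64.3 CPM in the other groups, with an interaction of -5.77 ± 1.14. Ifrd1, a transcriptional regulator, had an interaction of -1.65 ± 0.26. At MII 3W it was at 369 to 495 CPM in CKO and 524 to 608.5 CPM in WT, without overlap. Kcng2, Btla and Ifrd1 were not called against FGO 3W (-0.13, -2.62 and -0.74).

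Gsto2, a glutathione transferase, and Lcp2, a signalling adaptor, rested on near absence from CKO FGO 4W, with 2 counts each over its 3 libraries. At FGO 4W, WT over CKO was 827-fold for Gsto2 (95% counting interval 229 to 6840) and 451-fold for Lcp2 (125 to 3730). Most low counts were even (81% of counts from 1 to 20), so counts were not independent and these intervals are narrower than the counting error. Gsto2 was at 12.6, 10.4, 7.29 and 11.9 CPM in CKO MII 3W and 7.503, 8.65 and 10.9 CPM in WT MII 3W, groups that overlapped. Lcp2 was at 3.71 to 4.98 CPM in CKO MII 3W and 24.5 to 29.7 CPM in WT MII 3W. Their fitted interactions were 9.69 ± 0.79 and 5.96 ± 1.08, and against FGO 3W both turned below 0 (-2.19, edgeR adjusted p = 0.00833, and -2.03, edgeR adjusted p = 0.0779).

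Dynlt1b, a dynein light chain, had opposite genotype changes at the stages. It was at 21.3, 24.0, 29.9 and 30.6 CPM in CKO MII 3W and at 1.21, 1.68 and 2.02 CPM in WT MII 3W, and at 4.54, 4.36 and 4.63 CPM in CKO FGO 4W and 23.7, 23.5 and 28.8 CPM in WT FGO 4W. CKO at MII 3W stood about where WT stood at FGO 4W, and the interaction was 6.50 ± 0.44 (SE; edgeR adjusted p = 1.45e-10), 4.70 against FGO 3W. Tmem181b-ps, a pseudogene that overlaps it (chromosome 17, 6439002 to 6450994, against 6429530 to 6440500 for Dynlt1b), had an interaction of 5.80 ± 0.96, and reads of the overlapping stretch cannot be told apart. Dynlt1b also has near copies on the same chromosome.

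Pramel27, of the PRAME-like family of near copies, had the highest interaction of all named genes. It was at 180.1, 132, 122 and 206 CPM in CKO MII 3W and at 0, 0.0883 and 0 CPM in WT MII 3W, and at 14.5, 18.3 and 13.6 CPM in CKO FGO 4W and 289, 429 and 278 CPM in WT FGO 4W. At MII 3W the counts were 17569 in CKO and 2 in WT, a 6040-fold ratio (95% counting interval 1670 to 49900, narrower than the counting error for the same reason). The fitted interaction of 16.76 ± 1.14 was 2.13 and not called against FGO 3W. Zfp985, a zinc finger gene of a family of near copies, was at 43.5 to 58.6 CPM in CKO MII 3W against 205 to 219.8 CPM in WT MII 3W and at 49.0 to 71.4 CPM in CKO FGO 4W against 2.63 to 6.98 CPM in WT FGO 4W (interaction -5.59 ± 0.65), and it turned to 1.58 against FGO 3W (edgeR adjusted p = 0.133). Hsd17b13, a lipid droplet dehydrogenase, was at 2.30 to 3.84 CPM in CKO MII 3W against 18.5 to 25.1 CPM in WT MII 3W and at 21.4 to 28.7 CPM in CKO FGO 4W against 1.65 to 9.15 CPM in WT FGO 4W (interaction -5.19 ± 0.59).

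Genes higher in CKO at both stages and by more at MII 3W included Traf3ip1, a protein of intraflagellar transport, at 47.8 to 55.1 CPM in CKO MII 3W against 2.54 to 5.87 CPM in WT MII 3W and at 12.9 to 15.6 CPM in CKO FGO 4W against 6.94 to 10.5 CPM in WT FGO 4W (interaction 2.77 ± 0.35, 1.52 against FGO 3W). Ruvbl1, an ATPase of chromatin remodelling complexes, was at 68.7 to 83.4 CPM in CKO MII 3W against 11.4 to 12.99 CPM in WT MII 3W (interaction 2.02 ± 0.27).

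The remaining genes with the lowest interactions were close to absent from CKO MII 3W. H2-T-ps, a pseudogene of the histocompatibility complex with near copies, was at 0 to 0.313 CPM in CKO MII 3W against 15.7 to 21.3 CPM in WT MII 3W, and at 30.7 to 35.3 CPM in CKO FGO 4W against 14.99 to 32.0 CPM in WT FGO 4W (interaction -7.44 ± 0.62). Scd3, a fatty acid desaturase with near copies, was at 0.0297 to 0.649 CPM in CKO MII 3W against 10.8 to 11.2 CPM in WT MII 3W, and at 46.2 to 70.8 CPM in CKO FGO 4W against 14.3 to 22.0 CPM in WT FGO 4W (interaction -6.94 ± 0.98). Colgalt2, a collagen galactosyltransferase, was at 0 to 1.30 CPM in CKO MII 3W against 4.69 to 7.503 CPM in WT MII 3W (interaction -5.82 ± 1.32, and -9.22 without both rRNA-rich libraries). Stk32a, a kinase, was at 0 to 0.265 CPM in CKO MII 3W and at 2.99 to 7.32 CPM in WT MII 3W, but WT FGO 4W replicate 2 held 0.610 CPM where its other replicates held 84.6 and 117 CPM. The interaction of Stk32a was -6.18 ± 1.24 against FGO 4W and 7.07 against FGO 3W (edgeR adjusted p = 0.0347), and that of Scd3 was not called there.

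Sequence features were read from 1 GENCODE vM21 transcript per gene, for 14721 of the 21768 tested genes and for 1972 of the 2521 genes called above 0. A comparison of UTR length or motif content between called and other genes is void at this coverage, and the shares of all genes with a transcript are given to place the motifs shown. A cytoplasmic polyadenylation element, which recruits CPEB, was searched as TTTTAT or TTTTAAT on the sense strand, and neither contains the other. Among transcripts whose 3′ UTR has at least 100 bases, it occurred in 60.4%, and in the last 100 bases in 19.2%.

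Elements within 100 bases of the transcript's end are shown for 4 named genes called below 0, whose level in CKO MII 3W lay below that in WT MII 3W, and, as examples, for 2 of those called above 0, since both kinds carry the element. Capitals mark the element, and sequences are from GENCODE vM21 transcripts on GRCm38, 5′ to 3′ on the strand of the gene.
Pxt1 (below 0, chr17:28933984-28934010, - strand): gtgaaataaataTTTTATtgagcacaa
Zbed3 (below 0, chr13:95337816-95337841, + strand): tttttaataaacTTTTATttatctgc
Sohlh2 (below 0, chr3:55209935-55209957, + strand): aaatgttttctcTTTTATaataa
Cldn34b2 (below 0, chrX:155124974-155125003, - strand): aataaaatattaTTTTATgggtagtattga
Lsm3 (above 0, chr6:91522606-91522625, + strand): tgatgtttccttTTTTATta
Rpl5 (above 0, chr5:107908967-107908996, + strand): attaactgaactTTTTAATaaatgagtcat

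G-quadruplex motifs, the structures that DHX36 unwinds, were searched on the sense strand as 4 runs of at least 3 G joined by 1 to 7 bases. They occurred in the 5′ UTR of 6.69% of all genes with a transcript, in the coding part of 3.82% and in the 3′ UTR of 9.71%. The first motif of a UTR is shown for 7 named genes with a called interaction. Motifs over 30 bases, and those of genes whose sequence is not reported here, are left out. Capitals mark the G runs, with the same source and build as above.
Scd3 (below 0, 3′ UTR, chr19:44243669-44243683, + strand): GGGGGGGGGGGGGGG
Mapk3 (above 0, 5′ UTR, chr7:126759603-126759628, + strand): GGGGccgcGGGcGGGGcagcGGGGGG
Ddx6 (below 0, 3′ UTR, chr9:44638698-44638715, + strand): GGGaGGGtGGGagtGGGG
Pabpn1l (above 0, 3′ UTR, chr8:122619577-122619598, - strand): GGGcaGGGaGGGGaGGGaGGGG
Ooep (above 0, 5′ UTR, chr9:78378590-78378608, - strand): GGGGcGGGGtcGGGctGGG
Chd4 (above 0, 3′ UTR, chr6:125130144-125130160, + strand): GGGGcaGGGaGGGaGGG
Psma5 (above 0, 5′ UTR, chr3:108257118-108257137, + strand): GGGaagcacGGGaGGGcGGG

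Of 13 oocyte markers tested, 5 were called above 0 (38.5%, against 11.6% of all genes) and 0 below. At FGO 4W, 8 of them were called lower in CKO (14.8% of all genes were) and 1 higher. Zp2 and Ooep are counted in other lists as well. Markers of other ovarian cells were measured beside these results. Of 15 granulosa and cumulus markers tested, 0 were called in the interaction by edgeR, and their summed level was 95.03 to 159.5 CPM in CKO MII 3W, 143.1 to 155.3 CPM in WT MII 3W, 59.6 to 82.1 CPM in CKO FGO 4W and 50.1 to 56.4 CPM in WT FGO 4W, mostly from Cyp19a1. Amh, Foxl2 and Fst were at 0 in all 7 MII 3W libraries, while Cyp19a1 averaged 101.7 CPM in CKO MII 3W and 127.2 CPM in WT MII 3W. Fshr averaged 4.85 CPM in CKO MII 3W and 0.127 CPM in WT MII 3W, and 20.3 CPM in CKO FGO 4W and 1.34 CPM in WT FGO 4W. Of 4 stroma and theca markers tested, 1 was called above 0, Pdgfra (4.21 ± 1.19, and 2.54 and not called against FGO 3W), and the summed level was 6.64 to 7.45 CPM in CKO MII 3W, 2.08 to 3.54 CPM in WT MII 3W, 1.62 to 2.32 CPM in CKO FGO 4W and 1.26 to 1.36 CPM in WT FGO 4W, with Lum at 0 in all 13 libraries. Of 4 blood and immune markers tested, 0 were called by edgeR, and the summed level was 1.72 to 4.29 CPM in CKO MII 3W, 2.93 to 3.84 CPM in WT MII 3W, 2.63 to 3.74 CPM in CKO FGO 4W and 1.76 to 2.06 CPM in WT FGO 4W. At an unadjusted p under 0.05, 6747 of all genes tested passed in the interaction. The part of these cells in the results was not tested.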

How the data were processed

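Poly(A) RNA was measured by Smart-seq2 in tubes of 10 oocytes, and nothing in the labels ties replicates to separate animals, so p-values measure only the spread between these samples. Per the submitters' processing notes, Trim Galore, FastQC, HISAT2, SAMtools, featureCounts and mm10 were used, while annotation and strand setting are not given in the sources used here. The authors deposited raw counts per gene, and FPKM values, per the file headers. Of counts from 1 to 20, 81% were even. All 21768 genes tested matched the RefSeq table.

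The counts were fitted with edgeR 4.0.16 (R 4.3.3) in 1 model of 10 groups and all 29 libraries, with TMM scaling, filterByExpr (minimum count 10), trended dispersion and the quasi-likelihood F test, called at a Benjamini-Hochberg adjusted p of 0.05. A prior count of 2 was added for log2 CPM. Counting ratios have an exact 95% interval. Alternatives used DESeq2 1.42.0 and limma 3.58.1 on log2(FPKM + 1) or log2(FPKM + 0.1), with a minimum of 1 FPKM. On simulated data (21071 genes), 40.4% of genes with a 4-fold and 3.03% with a 2-fold interaction were called, against 1 of 20873 unchanged genes. Only 99 genes of each size were changed, far fewer than were called in the data, so the Benjamini-Hochberg cut was stricter there. An unadjusted edgeR p under 0.05 was reached by 67.7% and 48.5% of these genes. The shares called are therefore not the sensitivity of the reported test.

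Members and lists were chosen with earlier results of these data known. Named genes were the 6 highest and 6 lowest interactions among called genes with at least 20 CPM, the 2 lowest adjusted p in each direction of 4 patterns (MII 3W alone, FGO 4W alone, opposite signs, larger at MII 3W) under the same minimum, and up to 3 called members of each list by adjusted p. Ribosomal protein genes named as not called or shown by sequence alone were chosen after their values were seen. A gene that this rule names is not reported here.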

Additional observations from a re-analysis of the deposited data

Results flagged for a closer look

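Genotype changes differed between the stages in 2521 genes above 0 and 1329 below 0, by the test of the interaction itself. In CKO MII 3W, 1 library stood apart from the other 3 in 3 of 83 genes examined with Dixon's test, and chance gives about 1 in 20. Pabpc1l was at 85.1 CPM in replicate 4. Npm2 was at 258.9 CPM in replicate 3, which had the highest share of ribosomal RNA. Hsp90b1 was at 862 CPM in replicate 3 as well. The calls of these 3 genes held without each of those libraries.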

How the results depend on the processing

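Between 1956 and 2617 genes were called above 0 and between 1009 and 1694 below 0 when 1 library was left out. DESeq2 called 2119 genes below 0, over 1.5 times the 1329 of edgeR, and the cause was not tested. Every other setting kept both counts within 1.5 times: RLE size factors, no filter, 1 dispersion, the 13 libraries alone, limma with either pseudocount, FGO 3W and the fit without both rRNA-rich libraries, which was chosen after seeing the data. With FGO 3W in place of FGO 4W, 1977 calls were shared, 51.4% of those reported and 61.7% of those of the alternative. Of the 83 named genes, 64 kept direction and side of the threshold there, 15 lost their call and 4 reversed: Gsto2 (-2.19), Lcp2 (-2.03), Stk32a (7.07) and Zfp985 (1.58). FGO 3W also has fewer libraries than FGO 4W, and the part of this in the lost calls was not tested. The replicate block gave 2541 genes above 0 and 1490 below 0, and it called Dhx36. No label says that replicate numbers pair the samples. Over 18 pairs of libraries with the same number, deviations from group means correlated at -0.2156 to 0.1235. Pairs with unlike numbers were not computed, so these values cannot decide whether samples were paired. Depth limits genes with few counts.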
